A study of Mus musculus with 10 samples.

Results

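The interferon response genes are 34 mouse genes whose transcripts interferons induce, taken from the array by gene symbol in the platform annotation. Of these, 28 had a probe, 23 had a value on at least 1 array and 16 had values from 3 or more mouse pairs, out of 11130 genes with a probe and 4306 genes with values from 3 or more pairs. They were measured in aortic arch on 10 two-colour arrays, each of which set 1 double-null mouse (ApoE-/-,MyD88-/-) against 1 apoE-null mouse (ApoE-/-), so every mouse in the study lacked apolipoprotein E and was prone to atherosclerosis. The 5 mouse pairs were hybridised in both dye orientations: both mice were female in pair 1 and male in pairs 2, 3 and 4, while in pair 5 the double-null mouse was male and the apoE-null mouse female. The labels of 8 arrays give a high fat diet of 8 weeks, the other arrays hold mice that also appear on these, and no label states an age. All values are log2 ratios of double-null over apoE-null, the average of the 2 arrays of a pair, so that a positive value means more transcript in the double-null aorta.

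Interferons signal through paired receptors and the kinases Jak1, Jak2 and Tyk2. Type I interferons activate a complex that includes Stat2 and Irf9 and binds the interferon-stimulated response element (ISRE), whereas the response to interferon-γ runs mainly through the gamma-activated site (GAS). MyD88, an adaptor of interleukin-1 receptors and most Toll-like receptors, leads from Tlr7 and Tlr9 to Irf7 and type I interferon, while Tlr3 uses another adaptor, Ticam1. In the arterial wall, macrophages, endothelial cells and smooth muscle cells can all respond to interferons.

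Many of the listed genes hold the letters of these elements near their start. The letters were not used to choose the genes, but a list of interferon-induced genes is likely to be rich in them by its choice. In RefSeq promoter windows of 300 bases (250 before the gene start and 50 after it, build GRCm38.p6), 27 of the 34 genes had a window. The ISRE letters GAAANNGAAA, read on both strands, occurred in windows of 16 of these 27 genes (59.3%), against 3.99% of all 27025 genes with a window. The GAS letters TTCNNNGAA, which read the same on both strands, occurred in 12 of the 27 (44.4%), against 9.55% of all genes. The motifs were counted apart, whether or not they overlapped. The stretches below are shown because their genes were tested on the arrays. Each is written 5′ to 3′ on the gene's strand, with the ISRE matches inside the stretch in capitals (for Isg20, the GAS match), and none runs past the gene start. They come from chr10:128270256-128270305 (plus strand) for Stat2, chr19:34583353-34583402 (plus) for Ifit3, chr11:48871421-48871470 (minus) for Irgm1, chr11:48992294-48992343 (minus) for Tgtp1, chr3:142620584-142620633 (plus) for Gbp2 and chr3:142559979-142560028 (plus) for Gbp3. The last stretch, chr7:78913331-78913380 (plus), holds the GAS letters of Isg20, the tested member with the largest mean ratio, whose windows held no ISRE letters. GAS letters also occurred in windows of the tested members Irf1, Irf8, Ifit2, Ifitm3, Tgtp1 and Ifi35, all with mean ratios below 0.
Stat2: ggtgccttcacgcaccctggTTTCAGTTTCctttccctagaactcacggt
Ifit3: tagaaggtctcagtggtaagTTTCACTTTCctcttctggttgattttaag
Irgm1: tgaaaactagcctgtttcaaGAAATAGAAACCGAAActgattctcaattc
Tgtp1: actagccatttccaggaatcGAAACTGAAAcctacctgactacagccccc
Gbp2: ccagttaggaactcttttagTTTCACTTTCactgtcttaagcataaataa
Gbp3: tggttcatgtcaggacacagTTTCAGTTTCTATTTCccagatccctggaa
Isg20: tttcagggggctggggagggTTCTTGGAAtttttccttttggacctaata

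The genotype check came first. Myd88 fell, with log2 ratios of -1.06, -0.57, -0.81, -1.15 and -0.90 in pairs 1 to 5 (mean -0.90 ± 0.22, SD, n = 5 pairs, limma adjusted p = 0.0250). Where in the gene its probe lies, relative to the deleted part, is not given, and without any 1 pair the adjusted p of Myd88 lay between 0.0544 and 0.119. The interferon response genes had a median ratio near that of all genes. None of the 16 tested members passed limma's test at an adjusted p under 0.05, where 0.813% of all 4306 genes did. At an unadjusted p under 0.05 there were 2 members, Isg20 and Stat2, beside 9.5% of all genes. Of the 12 members with all 5 pair values, 3 kept 1 sign in every pair (Isg20 above 0, Stat2 and Ifit2 below 0), beside 10.7% of the genes with 5 values.

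The median log2 ratio of the 16 members was -0.07, against -0.04 for all genes tested. Of the members, 12 lay below 0 (75% of 16) and 4 above, and among all genes 58.3% lay below 0. The median size of a member's ratio, whatever its sign, was 0.17, against 0.14 for all genes. The 95% confidence interval from the limma fit lay within 1 log2 unit of 0, a 2-fold change, for 15 of the 16 members, Isg20 being the exception. It lay within 0.5 log2 units for 6.

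**Figure D1:**
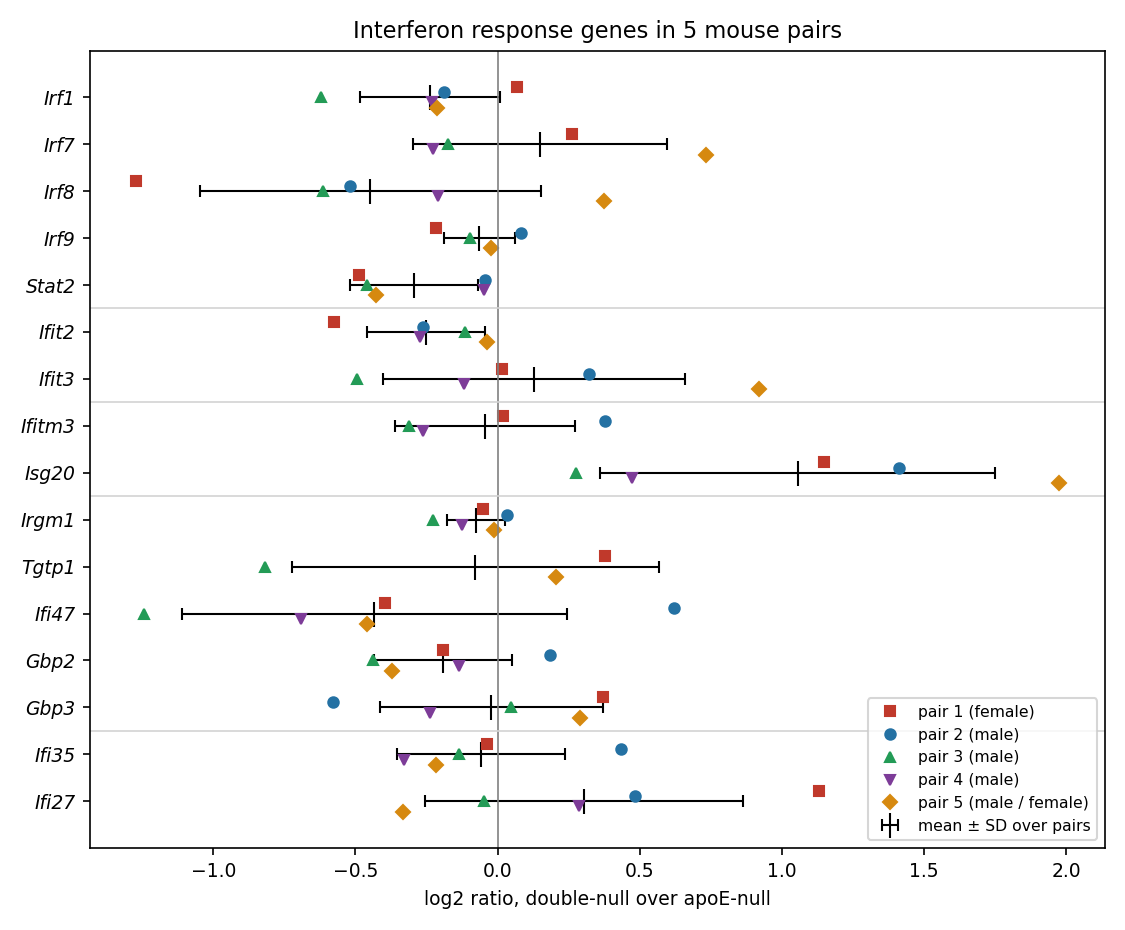
Log2 ratio (double-null over apoE-null, x axis) of the 16 tested interferon response genes, each point 1 mouse pair, with the mean and SD over pairs in black and grey lines between role groups. Isg20 lies above 0 in all 5 pairs, Stat2 and Ifit2 lie below 0 in all 5, and 13 members have points on both sides.

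The 5 transcription factors among the members were all tested, and 4 of 5 had means below 0 without passing the test (median -0.24). Stat2, which joins Irf9 in the type I interferon complex, had log2 ratios of -0.49, -0.05, -0.46, -0.05 and -0.43 in pairs 1 to 5. Pairs 1, 3 and 5 were low and pairs 2 and 4 close to 0. Its mean was -0.29 ± 0.23 (SD, n = 5 pairs, limma adjusted p = 0.505). Irf9, the DNA-binding partner in the same complex, read -0.22, 0.08, -0.10 and -0.02 in pairs 1, 2, 3 and 5, a mean of -0.06 ± 0.13 (SD, n = 4 pairs). Irf1, an activator that interferon-γ induces, read 0.07, -0.19, -0.62, -0.23 and -0.21 in pairs 1 to 5 (mean -0.24 ± 0.25, SD, n = 5 pairs, limma adjusted p = 0.571). Irf7, the factor that amplifies type I interferon production and receives signals through MyD88, read 0.26, -0.17, -0.23 and 0.73 in pairs 1, 3, 4 and 5, with signs on both sides and a mean of 0.15 ± 0.45 (SD, n = 4 pairs, limma adjusted p = 0.774).

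Irf8 had the lowest mean of the members. This factor directs the development of monocytes, macrophages and dendritic cells besides responding to interferon-γ. It read -1.27, -0.52, -0.61, -0.21 and 0.38 in pairs 1 to 5, lowest in the female pair and above 0 in the pair of unlike sex, and its mean of -0.45 ± 0.60 (SD, n = 5 pairs) did not pass (limma adjusted p = 0.532). The 13 macrophage markers measured, of 16 listed, had pair medians of -1.08, -0.38, -0.71, -0.56 and 0.10 in the same order. Of these markers, 12 had means below 0, and their part in the Irf8 ratio was not tested. The 2 dendritic cell markers measured (Tcf4 and Itgax), of 8 listed, had pair medians of -0.95, -0.07, 0.05, 0.09 and 0.26. These were also lowest in pair 1 and highest in pair 5, and their part was not tested either. In whole tissue, fewer cells of a type and less RNA per cell cannot be told apart.

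Among the IFIT genes, which encode proteins that bind viral RNA and block its translation, the neighbours Ifit2 and Ifit3 had means of opposite sign and neither passed. Ifit2 read -0.57, -0.26, -0.11, -0.27 and -0.04 in pairs 1 to 5, below 0 throughout and on 9 of 10 arrays (mean -0.25 ± 0.21, SD, n = 5 pairs, limma adjusted p = 0.532). Ifit3 read 0.02, 0.32, -0.50, -0.12 and 0.92, with its highest value in the pair of unlike sex and a mean of 0.13 ± 0.53 (SD, n = 5 pairs, limma adjusted p = 0.824). Ifit1, the founding member of the family, had a probe with no value on any array.

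Isg20 had the largest mean ratio of the 16 tested members. It encodes a 3′ to 5′ exonuclease that degrades single-stranded RNA and is induced by interferon. It read 1.15, 1.41, 0.27, 0.47 and 1.97 in pairs 1 to 5, above 0 in 5 of 5 pairs and on 9 of 10 arrays, high in pairs 1, 2 and 5 and lower in pairs 3 and 4. The mean of 1.06 ± 0.69 (SD, n = 5 pairs), a ratio of 2.08, had a 95% confidence interval of 0.51 to 1.60 and missed the threshold over all genes (limma adjusted p = 0.123). The array-level fit, with the pair as a random block, called it at the same mean (limma adjusted p = 0.0315), and no other alternative did. That fit takes 1 correlation between partner arrays for all genes, and whether this suits Isg20 was not tested. The 2 dye orientations of Isg20 gave means of 1.23 and 0.88.

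Red cell transcripts were also above 0. Alas2, the erythroid enzyme of haem synthesis, read 1.58, 1.01, 0.53, 0.48 and 2.33 in pairs 1 to 5, and the α-globin gene Hba-a1, whose near-identical copy its probe may share, read 1.00, 0.37, 0.47, 0.12 and 0.34. Alas2 was highest in pairs 5, 1 and 2, as Isg20 was, whereas Hba-a1 was highest in pairs 1 and 3. In pairs 2 and 4, Hba-a1 read nearly the same as the smooth muscle gene Tagln (0.36 and 0.12). Where channel 1 held the double-null sample of pair 4, Hba-a1, Tagln and Acta2 all read -0.36. The reason was not tested, and the pair order of Hba-a1 carries this limit. Alas2 and Hba-a1 are the 2 erythroid markers measured of 3 listed, and their part in the Isg20 ratio was not tested. Ifitm3, a membrane protein that hinders virus entry and the other tested restriction factor, read 0.02, 0.38, -0.31 and -0.26 in pairs 1 to 4 (mean -0.04 ± 0.32, SD, n = 4 pairs).

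**Figure D2:**
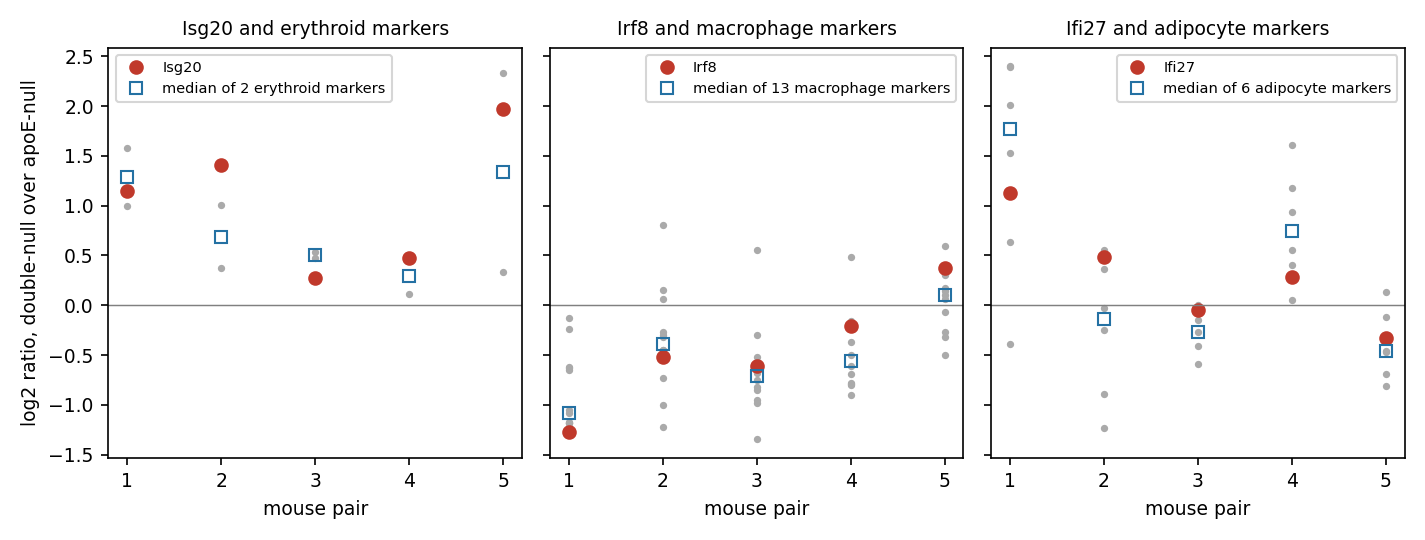
Log2 ratio (double-null over apoE-null, y axis) by mouse pair (x axis) for Isg20, Irf8 and Ifi27 (filled circles), beside the median (open squares) and single values (grey dots) of 2 erythroid, 13 macrophage and 6 adipocyte markers, panels that were matched after the values were seen. Isg20 and the median of the erythroid markers are highest in pair 5, although Hba-a1 is highest in pair 1, Irf8 and the macrophage median are lowest in pair 1 and highest in pair 5, and Ifi27 and the adipocyte median are highest in pair 1 and lowest in pair 5. In pairs 2 and 4, Hba-a1 reads nearly the same as the smooth muscle gene Tagln, for a reason not tested.

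The immunity-related GTPases and guanylate-binding proteins, which interferon-γ induces and which act on vacuoles that hold pathogens, had means below 0 in 5 of 5 tested genes (median -0.08), none of which passed. Among all genes, 58.3% lay below 0. On arrays with the double-null sample in channel 1 alone, Irgm1, Tgtp1 and Gbp3 lay above 0, at 0.13, 0.54 and 0.18. Ifi47 read -0.40, 0.62, -1.24, -0.69 and -0.46 in pairs 1 to 5, with pair 2 alone above 0 and a mean of -0.43 ± 0.68 (SD, n = 5 pairs, limma adjusted p = 0.579). Its partner arrays lay close together in pairs 2, 3, 4 and 5, as in pair 3 with -1.23 and -1.25. Irgm1, a regulator of the other GTPases of the family, had the smallest spread between pairs of the tested members, at -0.05, 0.03, -0.23, -0.12 and -0.01 (mean -0.08 ± 0.10, SD, n = 5 pairs), with a 95% confidence interval of -0.32 to 0.16. Its mean was 0.13 where channel 1 held the double-null sample and -0.28 where channel 2 did (limma adjusted p = 0.223 for a dye effect), and the 2 arrays had opposite signs in all 5 pairs, so the small spread is that of averages of opposite signs.

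Gbp2 and Gbp3, close paralogs whose probes may share signal, did not run together. Gbp2 read -0.19, 0.18, -0.44, -0.14 and -0.37 in pairs 1 to 5 (mean -0.19 ± 0.24, SD, n = 5 pairs), highest in pair 2. Gbp3 read 0.37, -0.58, 0.05, -0.24 and 0.29 (mean -0.02 ± 0.39, SD, n = 5 pairs), lowest in pair 2. Tgtp1, a T cell-specific GTPase by name, read 0.38, -0.82 and 0.21 in pairs 1, 3 and 5 (mean -0.08 ± 0.65, SD, n = 3 pairs, limma adjusted p = 0.929). It shares most of its sequence with Tgtp2, so its probe may not separate them. Igtp had a probe with no value, and Iigp1 had 2 pair values, -0.18 in pair 3 and -0.22 in pair 4.

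Of the remaining tested proteins, Ifi35 read -0.04, 0.44, -0.14, -0.33 and -0.22 in pairs 1 to 5 (mean -0.06 ± 0.30, SD, n = 5 pairs). Ifi27, a mitochondrial protein that type I interferon induces, read 1.13, 0.48, -0.05, 0.29 and -0.33, high in the female pair and below 0 in pairs 3 and 5 (mean 0.30 ± 0.56, SD, n = 5 pairs, limma adjusted p = 0.620). The 6 adipocyte markers measured, of 9 listed, had pair medians of 1.77, -0.14, -0.27, 0.74 and -0.46 in the same order. Perivascular fat is part of the tissue around the aorta, and its part in the Ifi27 ratio was not tested.

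Blank cells were common on the list and over the whole array. Of 28 members with a probe, 16 had 3 or more pair values, a larger share than the 4306 of 11130 genes. The 12 genes with a probe but fewer than 3 pair values include the best known type I interferon targets, and they are described here without a test. No value was given on any array for Ifit1, Oas1g, Usp18, Mx1 and Igtp. Isg15, the ubiquitin-like protein that is conjugated to other proteins, had values on 6 arrays: 0.19, 0.78, -0.86, 0.33 and 0.20 with double-null RNA in channel 1 (pairs 1 to 5), and 0.29 with it in channel 2 (pair 1). The partner arrays of pair 1 lay close, and pair 3 stood below 0. Mx2, an antiviral GTPase that the RefSeq table lists as a transcribed pseudogene in this reference strain, had values on the 5 arrays of 1 orientation alone, -0.19, 0.38, 0.17, 0.23 and 0.13 in pairs 1 to 5.

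Rsad2, the antiviral enzyme viperin, was given in pair 5 alone, where it read 1.84 and 2.34 on the 2 arrays, a pair value of 2.09. With no value in the other pairs, it cannot be compared with them. Oasl2, of the family that senses double-stranded RNA, read -1.04 in pair 1 and 0.71 in pair 4, and the partner arrays of pair 4 differed, at -0.10 and 1.52. Eif2ak2, the double-stranded RNA kinase that stops translation, had 1 pair value, -0.39 in pair 3. It had values on all 5 channel 1 arrays, from -0.26 to 1.24, and on 1 channel 2 array, -0.88. Ifi204, a nuclear DNA-binding protein of the p200 family, read -0.86 in pair 1 and -0.23 in pair 4. Bst2, Ifi44, Oas1a, Oas2, Oasl1 and Gbp7 had no probe under these symbols.

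**Figure D3:**
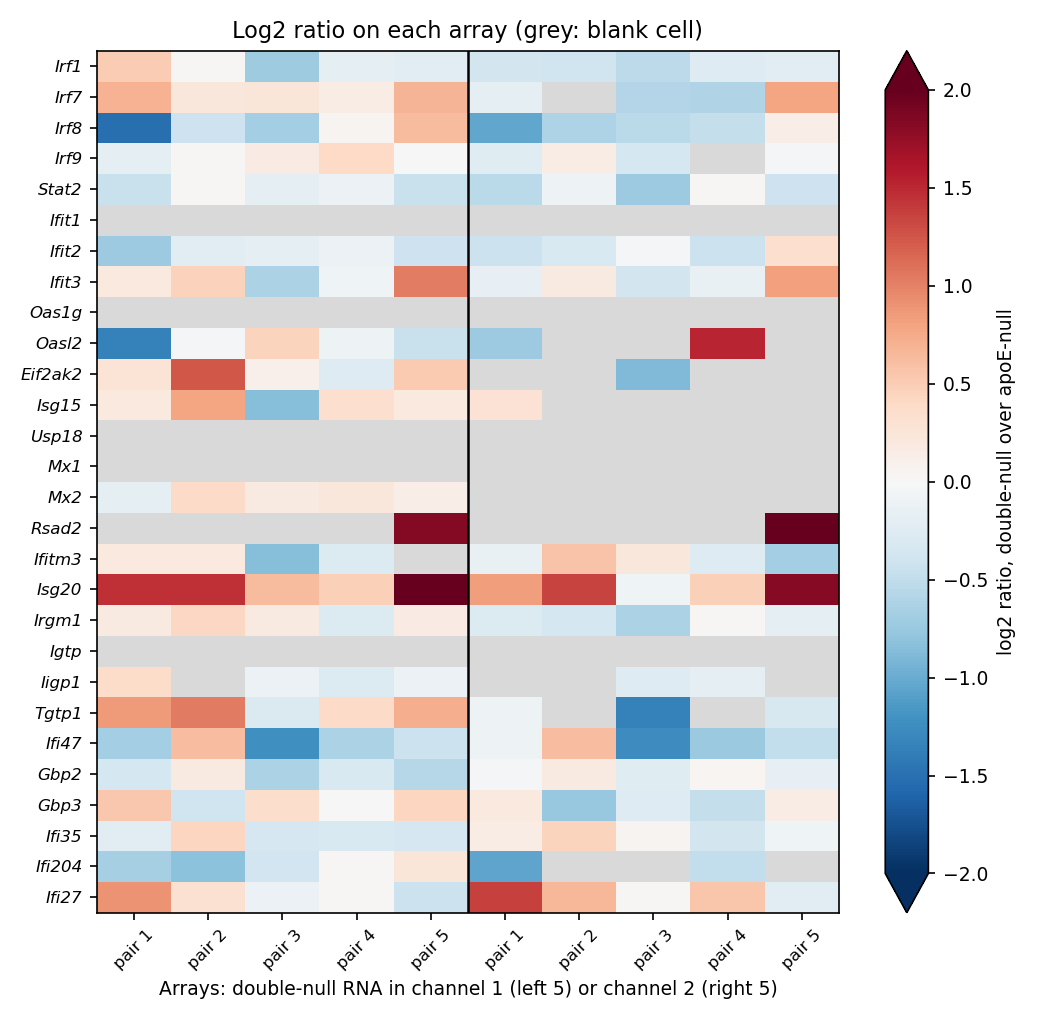
Log2 ratio (double-null over apoE-null, colour scale ending at -2 and 2) of the 28 interferon response genes with a probe (rows) on each of 10 arrays (columns), with double-null RNA in channel 1 left of the line and in channel 2 right of it. Blank cells are grey: 5 genes have no value, and the channel 1 arrays hold 21 or 22 of the 28 genes, against 14 to 19 on the channel 2 arrays.

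The blank cells follow the dye orientation in the whole table as well. Of 13872 probes, 5745 to 7057 had a value where channel 1 held the double-null RNA, and 4581 to 5436 where channel 2 held it. The array medians as deposited, that is apoE-null over double-null and so of opposite sign to the other values, lay between -0.01 and 0.09. Of 9 smooth muscle and 8 endothelial markers, 7 and 5 had values from 3 or more pairs. Ratios carry no level, so the tissue label could not be checked by abundance. In pair 1 both labels list the same animals but swap which one was double-null, and each array was read by its genotype label. Results without each pair are given in the closing section.

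The test of a dye effect passed for 1 member, Tgtp1 (limma adjusted p = 0.0180), beside 4.78% of all genes. Over its 3 pairs, Tgtp1 averaged 0.44 with the double-null sample in channel 1 and -0.59 with it in channel 2. In all, 6 of the 16 members had orientation means of opposite sign, against 41.2% of all genes. Isg20, Irf8, Ifi47, Stat2, Ifit2 and Ifi27 kept their sign in both orientations.

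**Figure D4:**
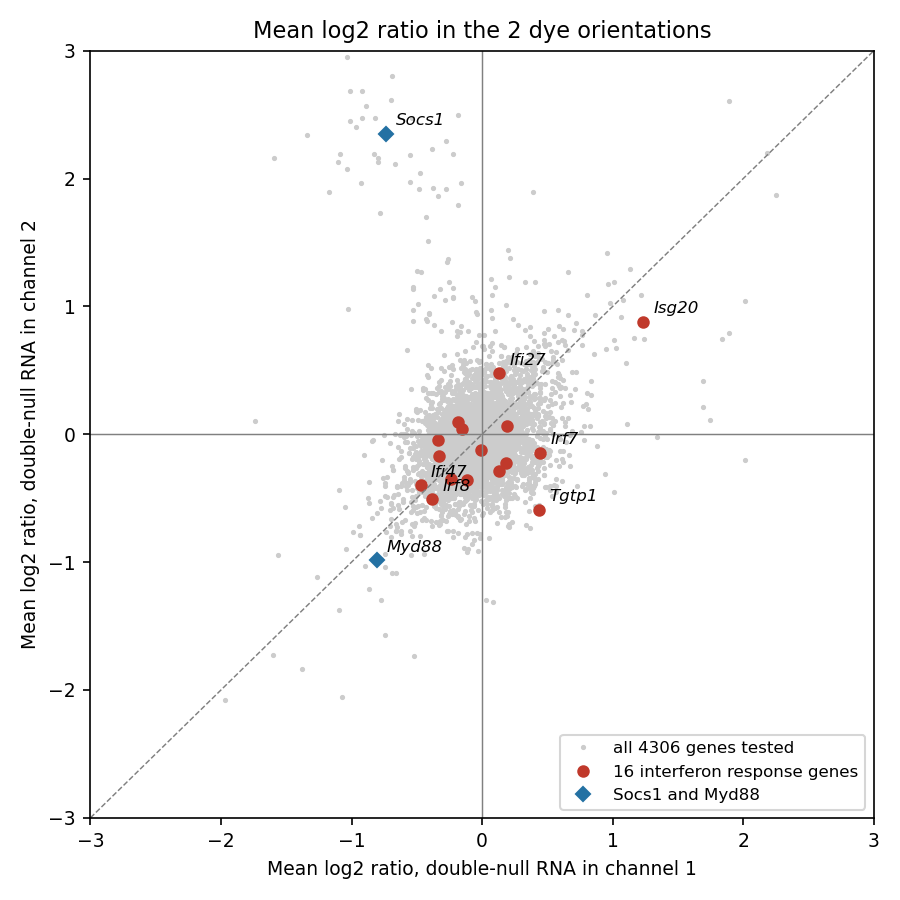
Mean log2 ratio (double-null over apoE-null) by orientation, double-null RNA being in channel 1 (x axis) or channel 2 (y axis), for all 4306 genes tested (grey), the 16 interferon response genes (red) and Socs1 and Myd88 (blue diamonds); 9 genes beyond 3 log2 units are outside the axes, and the dashed line marks equal values. Isg20 and Myd88 lie near the dashed line, whereas Socs1, at -0.74 and 2.35, and Tgtp1, at 0.44 and -0.59, change sign.

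The members' median was -0.01, 0.13, -0.27, -0.22 and -0.02 in pairs 1 to 5, a spread of 0.16 (SD). The median of all genes lay between -0.08 and 0.00. A median of 16 genes varies more than a median of 4306 by its size alone. The 2 spreads therefore do not show whether the members moved more than other genes. Pair 3 was the lowest, with 14 of 16 members below 0. Of the 12 members with 5 values, 6 had their lowest value in pair 3 (Irf1, Ifit3, Isg20, Irgm1, Ifi47 and Gbp2), against 13.4% of the 3202 genes with 5 values. Pair 2 held the highest value of 5 of the 12, against 23.0% of genes. Both are male pairs. Ifi47 spanned the widest range between them, 0.62 in pair 2 and -1.24 in pair 3. Isg20 was the highest of the 16 tested members in each of the 5 pairs.

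Set against the 3 male pairs, the female pair gave 0 of 13 members with values in all 4 past the threshold of limma's test of the difference, beside 0.209% of 3344 genes. At an unadjusted p under 0.05 there were 2 members of 13, Ifi27 and Irf8, beside 16.1% of all genes, a share near the background. Ifi27 was 1.13 in the female pair and averaged 0.24 in the male pairs, a difference of 0.89 (limma adjusted p = 0.248). Irf8 was -1.27 in the female pair and averaged -0.45 in the male pairs, a difference of -0.82 (limma adjusted p = 0.260). With 1 female pair, its spread is taken from the male pairs.

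The tested members with and without ISRE letters had overlapping ranges. The 7 with such letters (Stat2, Ifit3, Ifitm3, Irgm1, Tgtp1, Gbp2 and Gbp3) had a median log2 ratio of -0.08, with 6 below 0 and a range of -0.29 to 0.13. The 8 with a window but no ISRE letters had a median of -0.15, with 6 below 0 and a range of -0.45 to 1.06. Ifi27 had no window. These splits are descriptions with no test, and a missing match says only that these letters are not in these 300 bases.

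In the wider pathway, 2 of 47 genes tested passed, beside 0.813% of all genes, and 1 of them was Myd88 itself. Of 24 other ligands, receptors and JAK-STAT genes, 9 were tested, 7 lay below 0, and 1 rose. This was Socs1, the inhibitor of Janus kinases that interferon induces, at 1.09, 0.89, 0.46, 0.71 and 0.88 in pairs 1 to 5 (mean 0.81 ± 0.24, SD, n = 5 pairs, limma adjusted p = 0.0306). Its orientations disagreed. With the double-null sample in channel 1 the 5 arrays ran from -1.10 to -0.23, and with it in channel 2 the other 5 ran from 1.66 to 2.82, a dye effect (limma adjusted p = 1.40e-06), so the pair mean averages opposite signs. Without any 1 pair its adjusted p lay between 0.0639 and 0.148. Of the 27 genes called higher over the whole table, 20 had orientation means of opposite sign.

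The receptor subunits of type I interferon did not pass. Ifnar2 read -0.45, -0.40 and -0.45 in pairs 1, 3 and 5 (mean -0.44 ± 0.03, SD, n = 3 pairs, limma adjusted p = 0.443). Ifnar1 read -0.34, -0.59, -0.05 and -0.21 in pairs 1, 3, 4 and 5 (mean -0.30 ± 0.23, SD, n = 4 pairs, limma adjusted p = 0.535). Both were below 0 in every pair measured. On the pair 3 array with the double-null sample in channel 1, Ifnar1 held the same value as Cxcl10, -0.784837. The reason was not tested. Il10rb, a receptor chain that interferon-λ shares with interleukin-10, averaged -0.45 ± 0.47 (SD, n = 4 pairs, limma adjusted p = 0.520).

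Of 25 sensors and adaptors that lead to interferon, 8 were tested, and Myd88 itself was the only one that passed. Of the other 7, 6 lay below 0. The smallest p-values among them belonged to Dhx58, a regulator of cytoplasmic RNA sensing (mean -0.23 ± 0.15, SD, n = 5 pairs, limma adjusted p = 0.532), and to Tbk1, the kinase that phosphorylates Irf3 (mean -0.29 ± 0.32, SD, n = 5 pairs, limma adjusted p = 0.543). Irf3, its substrate, averaged 0.03 and lay above 0 in 4 of 5 pairs.

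Of 87 further interferon-induced genes, 30 were tested, none passed, and 26 lay below 0, where 58.3% of all genes did, with a median of -0.20 against -0.04 for all genes. The 13 macrophage markers had 12 below 0 and a median of -0.51, and their part in these ratios was not tested. Casp4, the inflammatory caspase that senses lipopolysaccharide (caspase-11 in mice), read -0.89, -1.12, -0.70, -0.70 and 0.15 in pairs 1 to 5 (mean -0.65 ± 0.48, SD, n = 5 pairs, limma adjusted p = 0.237). Plscr1, a phospholipid scramblase, read -0.60, -0.29, -0.48, -0.37 and -0.20, below 0 in every pair (mean -0.39 ± 0.16, SD, n = 5 pairs, limma adjusted p = 0.255). Parp9, an ADP-ribosyltransferase, averaged -0.26 ± 0.17 (SD, n = 5 pairs, limma adjusted p = 0.512), and Irgm2, a relative of Irgm1, averaged -0.28 ± 0.29 (SD, n = 5 pairs, limma adjusted p = 0.532).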

How the data were processed

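RNA from mouse aortic arch was amplified and hybridised on 10 two-colour arrays, per the labels, which name GenePix Pro 3.0 for quantification and also GeneSpring. The deposited values are log2 ratios of apoE-null over double-null, per the labels' titles. Their normalization, the reason for blank cells and signal over background are not stated in these sources. The number of mouse pairs limits the precision.

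Signs were turned to double-null over apoE-null. Probes of a gene were averaged per array, the 2 arrays of a pair were averaged when both had a value, and genes with 3 or more pair values entered a two-sided limma test against 0 (version 3.58.1 under R 4.3.3, with lmFit and eBayes), and p-values were adjusted by Benjamini-Hochberg over all 4306 genes. Each pair consists of different mice, per the labels, and the p-values reflect variation from pair to pair. The fit was tested on simulated pair values drawn without a dye effect, so that test says nothing about dye effects. The 21 alternatives left out each pair, used 1 orientation, the male pairs or single arrays, or changed the scaling, filters, moderation or threshold. Symbols came from the platform annotation: 12143 probes had 1, 49 had several and 1680 none. Updating by identifier changed 0 of them. Eif2ak2 had 2 probes, of which 1 gave values. RefSeq promoter windows gave the sequences.

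All tested members were named; of the wider lists, genes that passed and up to 4 with the smallest p. Irf3, Alas2, Hba-a1, Tagln, Acta2, Cxcl10 and the marker lists set beside members were chosen after their values were seen. The members and lists were chosen with earlier results of these data known.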

Additional observations from a re-analysis of the deposited data

How the results depend on the processing

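The count of changed members was 0 under 20 of 21 alternatives and 1, Isg20, in the array-level fit with the pair as a random block, where the 2 arrays of a pair are not averaged first. The adjusted p of Isg20 lay between 0.0315 and 0.520 over the alternatives. Without pairs 1 to 5 in turn its log2 ratio lay between 0.83 and 1.25 and was not called. The members' median lay between -0.15 and -0.04 without each pair and stayed within 1 spread of pair medians elsewhere, although it was 0.02 on channel 1 arrays alone. The number below 0 lay between 9 and 13 without each pair.

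Of 16 members, 8 kept their sign under every alternative (Irf1, Irf8, Stat2, Ifit2, Isg20, Ifi47, Gbp2 and Ifi27). None of the sign changes of the other 8 was called in either setting, and the cause was not tested. Without each pair in turn, Gbp3 lay between -0.12 and 0.12, Ifitm3 between -0.19 and 0.045, Ifi35 between -0.18 and 0.010, Irf7 between -0.046 and 0.27, and Ifit3 between -0.069 and 0.28. Gbp3 was 0.18 on channel 1 arrays, 0.0098 with arrays centred and 0.0081 with arrays centred and scaled. Ifi35 was 0.040 and Irf7 -0.14 on channel 2 arrays, and Ifit3 was -0.10 in the male pairs. Irf9 was 0.0029 in the array-level fit, 0.076 on channel 1 arrays and 0.030 with single-array pair values. Tgtp1 was 0.16, 0.54 and 0.24 under the same 3 settings, and Irgm1 was 0.13 on channel 1 arrays.

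Of the wider pathway, 2 genes were called, against 0 without each pair, 0 on channel 1 arrays, 0 with single-array pair values, 0 without moderation, 0 without genes with a dye effect, 1 in the male pairs (Casp4, adjusted p = 0.0499998, where neither Socs1 nor Myd88 passed) and 1 in the array-level fit (Myd88); these settings were added for this count, Socs1 and Myd88 after the values of Socs1 were seen. Socs1 was -0.74 on channel 1 arrays. Without each pair Socs1 lay between 0.73 and 0.89 and Myd88 between -0.98 and -0.84, and both missed the threshold.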

Other observations

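With a pair value taken from 1 array where the other was blank, 6 more members could be given a mean. None passed limma's test: Ifi204 had a log2 ratio of -0.41 (adjusted p = 0.475), Eif2ak2 0.28 (adjusted p = 0.692), Mx2 0.15 (adjusted p = 0.694), Isg15 0.14 (adjusted p = 0.842), Oasl2 -0.07 (adjusted p = 0.935) and Iigp1 -0.04 (adjusted p = 0.941). In this setting the dye orientations are not balanced, since most of the single values come from arrays with double-null RNA in channel 1.

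The interferon genes themselves left few values, all where channel 1 held the double-null sample. Ifna1 read 2.05, 0.33 and 0.35 in pairs 3, 4 and 5, and Ifna2 read -0.31 and 0.03 in pairs 4 and 5. These genes are near-identical copies, so their probes may share signal. Ifng had a value on 1 array, 0.40 in pair 3, and Ifnb1 on none. Tlr3 had 1 value, 0.57, on the same array as Ifng. None of these values has a dye-swapped partner.

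No member's pair value, and no pair median of the list, stood apart from the other pairs among 16 groups of 4 or 5 values checked, where chance would mark about 1 in 20.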
